A study of Oryzias latipes with 24 samples.

Results

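The genes described here are the medaka transcription factors whose DNA-binding domain places them in the ETS, Runt, IRF, STAT or Rel homology (RHD) family. They were taken from the study's list of 1646 transcription factors by the family given there, with 1 IRF identifier set aside beforehand, which left 67 of the 26549 genes in the expression table: 30 ETS, 4 Runt, 11 IRF, 8 STAT and 14 RHD genes. The rule used protein domains only and no expression value, but it was set with earlier results of these data known. Best domain E-values were 1.3e-18 or smaller for every gene except nfatc4, whose RHD match had an E-value of 0.016.

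Whole medaka (Oryzias latipes) embryos were collected at 11 stages between cleavage and the larval period, with 2 strand-specific poly(A) RNA libraries per stage, 22 in all. Stages 6, 11, 15 and 19 are cleavage, blastula, gastrula and early somite stages, and stages 25 to 41 run from later somite stages to after hatching. No treatment is named for any group, and the strain was Hd-rR in 20 libraries and d-rR / Qurt in replicate 2 of stages 40 and 41. Each library pooled many embryos, so an SD below is the spread between 2 pools. Nothing shows that the pools came from separate crosses. The p-values rest on the spread between pools, estimated jointly over the 11 stages and not for each stage alone. This spread may be technical. Levels are in TPM, the share of a gene in the transcripts of a library after correction for transcript length. TPM keeps no read depth, so the depth behind each value is unknown. In whole embryos, fewer cells of a type and less RNA per cell cannot be told apart.

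These families are best known from blood, vessels and immunity, but each also acts in the early embryo. STAT proteins wait in the cytoplasm until a cytokine receptor's Janus kinase phosphorylates them, and NF-kB proteins until their inhibitors are degraded. Most NFAT proteins, though not the nfat5 branch, wait until calcineurin removes phosphate. In none of these groups does the amount of mRNA show activity. ETS factors bind a GGA core and include effectors of FGF-ERK signalling, endothelial regulators and the myeloid regulator Spi1. Runt factors bind DNA together with the partner Cbfb and direct blood, bone and T cell fates, and IRF factors control interferon genes and immune cell fates.

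Gene names came from the study where it gave one (51 genes) and otherwise from RefSeq (3 genes: spic, spdef and nfkb2), and 13 genes keep their identifier. For IGDB11780 the study gives elf1 and RefSeq elf4, and for IGDB14030 the study gives erg and RefSeq fli1, so both names are carried here as elf1/elf4 and erg/fli1. IGDB14223 is listed by the study as txndc15, a name of another kind of protein, although its IRF domain has an E-value of 1.5e-38; it is called by its identifier. Positions below are those of the study's own gene models on the medaka genome.

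Most of the 67 genes were measurable, and most of these changed during development. Of them, 64 reached 1 TPM in at least 2 libraries and were tested, and IGDB04594, IGDB06691 and spic, all ETS genes, did not. The level differed among the 11 stages for 60 of the 64 (F test, adjusted p under 0.05), where 92.7% of all genes tested did. Among the 4 that did not pass were IGDB17438 of the RHD family (adjusted p = 0.442), nfat5a (0.121) and IGDB03998 of the IRF family (0.0545), which does not show that their levels were constant. Most of the 4 passed in a fit with a replicate block, described in the closing section. IGDB17438 was higher in replicate 1, and IGDB03998 in replicate 2, at each of the 11 stages. The median over the genes of the highest stage mean was 20 TPM.

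Changes between adjacent stages were concentrated before stage 19. A gene is called at a step when its adjusted p is under 0.05 and its log2 change, on the log2(TPM + 1) scale throughout, is at least 1 in size. From stage 6 to 11, 8 of the 64 factors rose and 3 fell, against 7.65% rises and 4.24% falls among all 21179 genes. From stage 11 to 15, 8 rose and 15 fell, against 15.1% and 20.1%. From stage 15 to 19, 9 rose and 5 fell, against 9.85% and 8.02%, and with quantile normalization 5 rose and 5 fell. Shares of all genes, here and below, are those of the fit without scaling. They are no background for the counts with quantile normalization, for which no share is given.

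Later steps held few calls. From stage 19 to 25, 2 factors rose and 0 fell, where 7.18% of all genes rose and 1.79% fell; with quantile normalization 0 rose and 1 fell. From stage 25 to 29, 1 rose and 0 fell, against 7.22% and 1.04%, and with quantile normalization 1 rose and 1 fell. At the 4 steps between stages 29 and 40 limma called 0 factors. Among all genes, 0% rose and 0.00472% fell between stages 29 and 32, and 4.12% rose and 0.269% fell between stages 32 and 36. The shares were 3.08% and 1.33% between stages 36 and 38, then 0.302% and 0.0331% between stages 38 and 40. At an unadjusted p under 0.05, 3, 4, 3 and 10 of the 64 factors passed at these 4 steps in that order. Of all genes, 7.67%, 15.6%, 20.1% and 7.28% passed at the same threshold and steps.

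The step from stage 40 to 41 brought 4 rises and 0 falls, while 5.22% of all genes rose and 9.71% fell. Distant stages were also compared, as the mean of stages 36 to 40 against the mean of stages 19 to 29. In this late comparison 10 factors rose and 1 fell, against 26.5% and 11.6% of all genes. With quantile normalization, which moved the median log2 change of all genes by -0.32 here, 4 rose and 5 fell. The median log2 change of the 64 factors was close to that of all genes at most steps. It was 0.09 against 0.02 at the first step, -0.28 against -0.02 at the step to stage 15, and -0.04 against -0.22 at the last step.

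Of the 55 step calls of factors, 30 were kept with a pseudocount of 5 TPM, which damps changes at low levels, and 36 with quantile normalization. The larger pseudocount ended at least 1 call described below of etv1, etv4, IGDB15968, both elk3 genes, ETS1, spi1b, elf3, runx3, irf1a, irf4a, irf5, irf9, stat5a, stat5b, Stat6, rel, nfatc3b, nfatc4 and Nfatc2 (IGDB08150), and in the late comparison it left the calls of gabpa, runx3 and NFATC1 (IGDB15479). Quantile normalization ended a step call of elk1, elk3 (IGDB20174), erg/fli1, ETS1, etv1, elf1/elf4, Elf1 (IGDB16597), elf3, irf2, irf5, irf9, Stat2, stat5a, stat5b, rel, nfatc3a, nfatc3b and nfatc4.

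**Figure D1:**
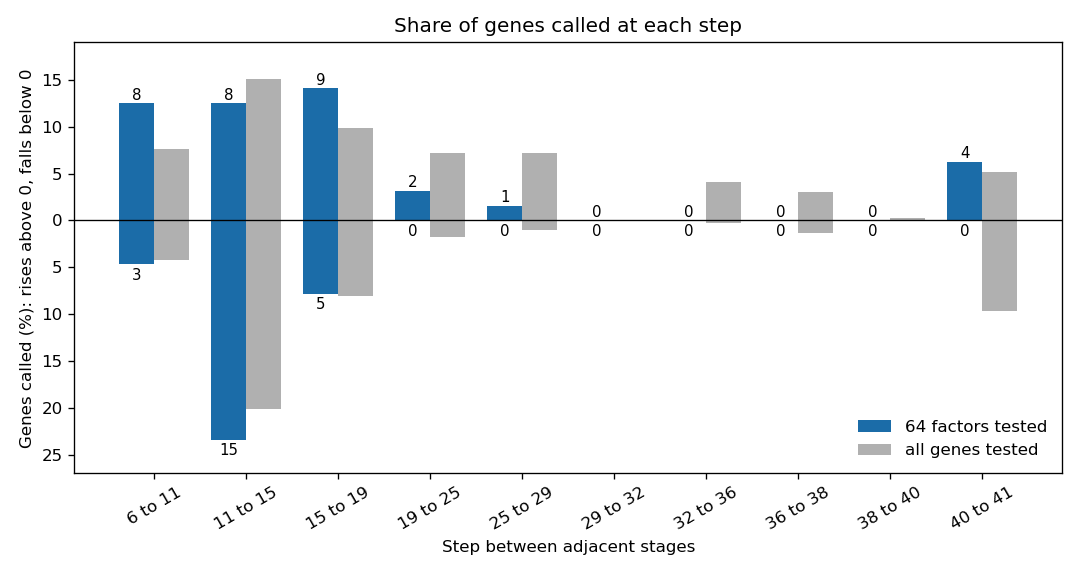
Percent of genes called at each step between adjacent stages, rises drawn above 0 and falls below it, for the 64 factors tested (blue, with counts) and all 21179 genes tested (grey). The blue bars are tall only up to stage 19 and reach 15 falls from stage 11 to 15, and they are absent between stages 29 and 40.

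The families differed in when their genes were highest. Among the 14 RHD genes 8 had their highest stage mean at stage 6 or 11, and among the 11 IRF genes 5 did, while the other 6 IRF genes were highest at stage 40 or 41 and none between. The 27 ETS genes tested were spread over the series, with 6 highest at stage 6 or 11, 7 at stages 15 to 25, 7 at stages 29 to 38 and 7 at stage 40 or 41. Over all 64 factors 35.9% were highest at stage 6 or 11, compared with 26.5% of the 1571 transcription factors tested and 30.4% of all genes. At the other end 29.7% were highest at stage 40 or 41, compared with 7.7% and 18.4%. These counts and shares are descriptions and were not tested. They include genes that did not pass the F test, such as IGDB17438, counted at stage 6, and IGDB03998, counted at stage 40.

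Summed over a family, the STAT genes held 391 and 417 TPM at stage 6 (replicates 1 and 2) and 185 and 196 TPM at stage 15. The RHD genes held 437 and 297 TPM at stage 6, 133 and 138 TPM at stage 15, and 95.2 and 104 TPM at stage 19. In both families every library of stages 6 and 11 lay above every library of stages 15 and 19.

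The Runt genes ran the other way, from 1.22 and 1.19 TPM at stage 6 to 32.2 and 37.8 TPM at stage 41. The ETS genes held 511 and 385 TPM at stage 6, 691 and 738 TPM at stage 15, and 344 and 340 TPM at stage 41. A single gene carried much of the STAT sum early on. In the 4 libraries of stages 6 and 11, stat5b made up 53.4% to 68.0% of it.

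**Figure D2:**
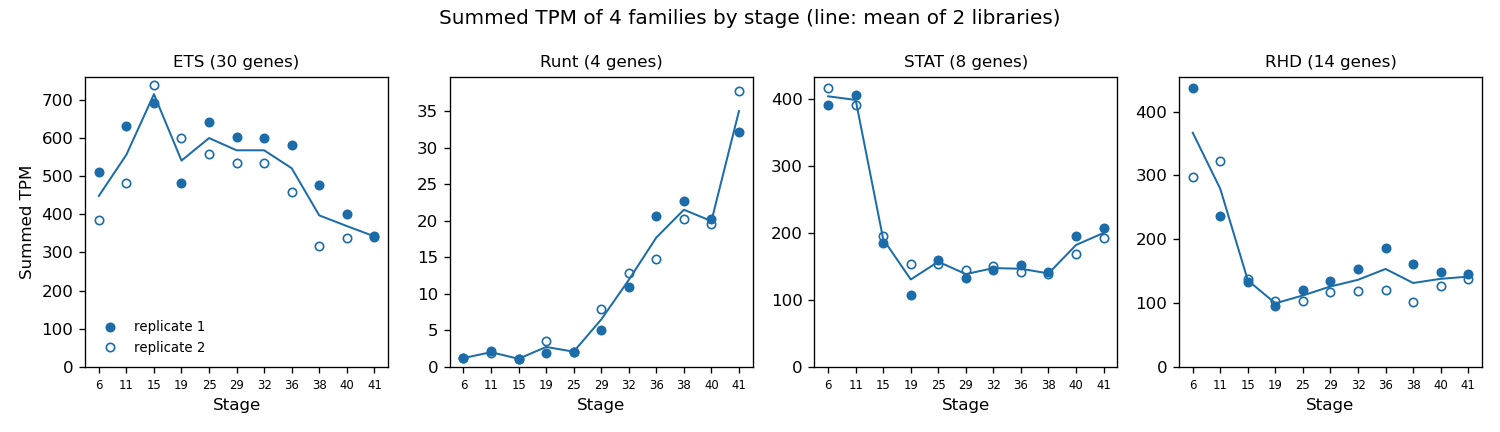
Summed TPM of the genes of the ETS, Runt, STAT and RHD families against stage, with filled points for replicate 1, open points for replicate 2 and a line through the mean of 2 libraries. The STAT and RHD sums drop between stages 11 and 15, and the Runt sum climbs from about 1.2 TPM to 32.2 and 37.8 TPM.

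**Figure D3:**
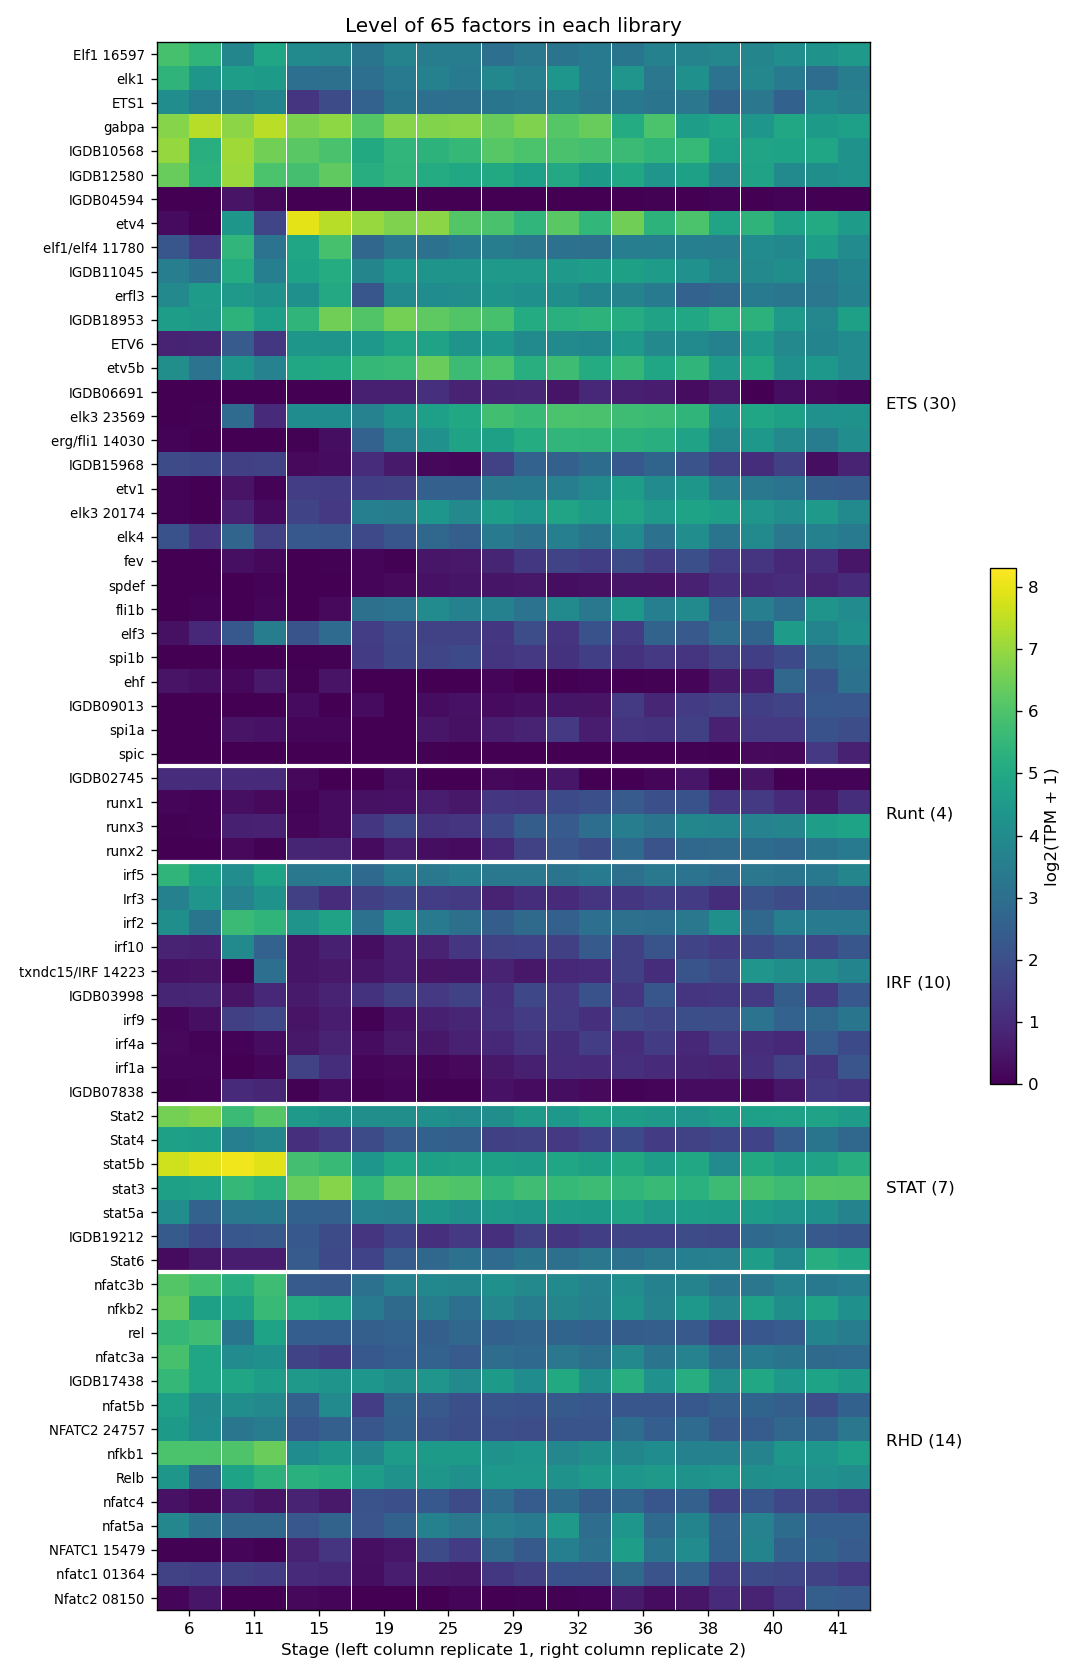
Level of 65 factors as log2(TPM + 1) in each of the 22 libraries, grouped by family and ordered within it by the stage of the highest mean. Bright cells at stages 6 and 11 mark stat5b and gabpa, and the brightest cells at stage 15 belong to etv4, at 247 and 168 TPM.

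Among the ETS genes, the PEA3 subfamily (etv1, etv4 and etv5b), transcriptional effectors of FGF-ERK signalling, held the largest step change of the 64 factors tested. etv4 (chromosome 19, 18211892 to 18250641) was at 0.185 and 0.0309 TPM at stage 6, 19.9 and 2.32 TPM at stage 11, and 247 and 168 TPM at stage 15. Each library of stage 15 lay far above those before it, and the 2 libraries of stage 11 differed widely. The log2 change was 2.91 from stage 6 to 11 (SE 0.63, adjusted p = 0.00431) and 4.62 from stage 11 to 15 (SE 0.63, adjusted p = 1.72e-05). The first of these calls was lost without replicate 1 of stage 11 and with a pseudocount of 5 TPM, and its change ranged from 1.40 to 5.17 over all alternatives. etv4 then declined without passing at any step, to 116 ± 18.1 TPM at stage 19 and 27.9 ± 7.05 TPM at stage 41 (SD, n = 2).

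Its relatives were later. etv5b was highest at stage 25, with 83.7 and 50.5 TPM, from 16.1 and 8.04 TPM at stage 6, and was called at no step. etv1 rose at the step from stage 11 to 15, when it was still low (1.83 and 1.81 TPM at stage 15 from 0.369 and 0.0657 TPM, log2 change 1.22, SE 0.31, adjusted p = 0.00381). It had its highest mean at stage 36, at 24.3 and 15.2 TPM, and rose in the late comparison (log2 change 1.37, SE 0.18, adjusted p = 2.42e-06). A rise of etv1 from stage 19 to 25 (1.01, adjusted p = 0.0449) sat at the threshold, and was lost under 5 of 10 settings and without 14 of the 22 libraries.

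Of 19 measured genes of the FGF-ERK pathway, 9 rose and 1 fell from stage 11 to 15, where 15.1% of all genes rose and 20.1% fell. The median log2 change of the 19 was 1.08 where that of all genes was -0.02. One of the most abundant genes of this list was fgfr2, an FGF receptor, at 129 TPM at stage 29. fgfr2 rose from stage 11 to 15 (log2 change 1.40) and from stage 15 to 19 (3.03). At stages 15 to 19 the list counted 4 rises and 1 fall, where 9.85% of all genes rose and 8.02% fell, and from stage 25 on no rise.

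ETV6, an ETS repressor known in mouse for maintaining blood stem cells, rose at the same step as etv4. It stood at 4.27 and 1.55 TPM at stage 11 and 19.9 and 18.8 TPM at stage 15 (log2 change 2.47, SE 0.35, adjusted p = 2.63e-05). The libraries did not overlap between these stages, and later stage means stayed between 13 and 24.3 TPM.

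The ternary complex factors elk1, elk3 and elk4, which join serum response factor (srf) on DNA, split by time. elk1 fell from 23.6 and 22.1 TPM at stage 11 to 7.25 and 7.39 TPM at stage 15 (log2 change -1.52, SE 0.43, adjusted p = 0.00953). Both genes named elk3 rose by stage 19, with values given among the pairs below. elk4 was called at no step and was highest at stage 38, at 15.9 and 8.15 TPM. The partner srf was itself highest at stage 32, at 70.7 ± 2.99 TPM (SD, n = 2).

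gabpa (chromosome 21, 3707309 to 3713567), the DNA-binding subunit of GABP, an activator of genes for mitochondria and protein synthesis, had the highest stage mean of the ETS genes at cleavage. It stood at 111 and 169 TPM at stage 6, 104 and 111 TPM at stage 25, 33.7 and 60.5 TPM at stage 36, and 22.1 and 24.5 TPM at stage 41. No single step was called, and gabpa was the only factor that fell in the late comparison (log2 change -1.60, SE 0.20, adjusted p = 1.63e-06), a call kept in all 32 alternatives run. Replicate 2 was above replicate 1 at each of the 11 stages. Its partner subunit gene gabpb2 fell in the same comparison, by 1.21 on the log2 scale, and was highest at stage 11, at 97.3 ± 21.2 TPM. A gene model on the opposite strand overlaps gabpa by 706 bases and peaked at 24.1 TPM; the libraries kept strand.

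Several abundant ETS genes have no name. IGDB10568 (unplaced scaffold 000594F, 258194 to 266429) was at 138 and 91.3 TPM at stage 11 and 28.2 and 18.3 TPM at stage 41. IGDB12580 (chromosome 11, 16714273 to 16744562) was at 131 and 60.7 TPM at stage 11 and 16.5 and 18.3 TPM at stage 41. IGDB18953 (chromosome 21, 597847 to 604294) was highest at stage 19, at 65.0 and 94.2 TPM. All 3 passed the F test and none was called at a step, and the libraries of stage 6 stood far apart for IGDB10568, at 126 and 36 TPM.

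The endothelial ETS genes appeared between gastrula and early somite stages. erg/fli1 (chromosome 13, 26627877 to 26656266) was at 0.0408 and 0.245 TPM at stage 15, 5.17 and 10.7 TPM at stage 19, 17.3 and 26.6 TPM at stage 25 and 43.6 and 41.9 TPM at stage 32. It rose from stage 15 to 19 (log2 change 2.90, SE 0.37, adjusted p = 3.21e-05) and again from stage 19 to 25 (1.40, SE 0.37, adjusted p = 0.0218). The second call was lost with quantile normalization, without replicate 1 of stage 19 and without replicate 2 of stage 25, and the change ranged from 0.94 to 1.87 over all alternatives. fli1b (chromosome 16, 27784175 to 27802863) was at 0 and 0.167 TPM at stage 15 and 7.37 and 7.85 TPM at stage 19 (log2 change 2.99, SE 0.40, adjusted p = 4.57e-05). In both genes every library from stage 19 on lay above all 6 libraries before it.

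ETS1, whose gene lies on the opposite strand 39663 bases from erg/fli1 on chromosome 13, was present from the start and dipped between. It stood at 10.3 and 12.4 TPM at stage 11, 1.42 and 2.77 TPM at stage 15 and 5.05 and 8.39 TPM at stage 19. It fell from stage 11 to 15 (log2 change -2.03, SE 0.34, adjusted p = 0.00015) and rose from stage 15 to 19 (1.32, SE 0.34, adjusted p = 0.011), the rise being lost without replicate 1 of stage 15 or replicate 2 of stage 19, with a pseudocount of 5 TPM and with quantile normalization.

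Endothelial marker genes rose at the same 2 steps. Of 13 measured, 8 rose and 1 fell from stage 15 to 19, where 9.85% of all genes rose and 8.02% fell. From stage 19 to 25, 8 of the 13 rose and 1 fell, where 7.18% of all genes rose and 1.79% fell. The summed level of the 13 was 71.2 and 72.3 TPM at stage 15, 136 and 170 TPM at stage 19 and 245 and 255 TPM at stage 25, then 188 and 180 TPM at stage 32. kdr and sox18 were listed at 0 in both libraries of stage 15, and no marker was listed at 0 after stage 19. The highest were cldn5, a junction protein, at 80.3 ± 13.3 TPM at stage 19, and sox17, at 66.0 ± 2.46 TPM at stage 15. sox17 held most of the sum at stage 15 and was the marker that fell at both steps, so the other markers together rose more than the sum shows. The part of endothelial cell number in these rises was not tested.

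spi1b (chromosome 3, 18157155 to 18165578) and spi1a encode Spi1 (PU.1), the regulator of myeloid fate. spi1b was at 0 and 0.0431 TPM at stage 15 and 1.75 and 2.46 TPM at stage 19 (log2 change 1.60, SE 0.23, adjusted p = 7.54e-05). It stayed between 1.31 and 2.66 TPM in the libraries of stages 25 to 40 and reached 6.28 and 8.34 TPM at stage 41 (log2 change 1.34, SE 0.23, adjusted p = 0.000475), above all 20 earlier libraries. Of 7 myeloid marker genes, 2 rose from stage 15 to 19 and 5 rose from stage 40 to 41, with 0 falls at both steps. Among all genes 9.85% rose and 8.02% fell at the first of these steps, and 5.22% and 9.71% at the second. The summed level of the 7 markers was 5.65 and 4.61 TPM at stage 15, 30.8 and 21.0 TPM at stage 19, 75.1 and 89.9 TPM at stage 40, and 969 and 647 TPM at stage 41. cd74, the invariant chain of antigen presentation, carried most of the last value at 672 ± 205 TPM (SD, n = 2), lyz, a lysozyme gene, was at 36.9 ± 8.95 TPM, and lyz was listed at 0 in both libraries of stages 6, 11, 15 and 25. The part of myeloid cell number was not tested. spic, a macrophage factor in mouse, was at most 0.169 TPM until stage 40 and was at 1.61 and 0.709 TPM at stage 41. Its model overlaps that of IGDB06691 on the same strand by 1296 bases, so reads could be split between them. IGDB06691 was at 1.18 and 0.773 TPM at stage 25, so the low spic values do not show that the locus was silent.

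The epithelial ETS genes were highest at stages 40 and 41. elf3 was at 3.87 and 10.2 TPM at stage 11 after 0.294 and 0.923 TPM at stage 6 (log2 change 2.23, SE 0.57, adjusted p = 0.0139), and rose in the late comparison (1.13, adjusted p = 0.00622). The first call was lost without replicate 1 of stage 6 or replicate 2 of stage 11. The late call was lost without the d-rR / Qurt libraries and without replicate 2 of stage 36 or 40. Both calls were lost with a pseudocount of 5 TPM and with quantile normalization. At stage 40 replicates 1 (Hd-rR) and 2 (d-rR / Qurt) of elf3 gave 5.32 and 22.9 TPM. Replicate 2 of elf3 was the higher at each of the 11 stages, also where both libraries were Hd-rR (1.73 and 5.31 TPM at stage 36). Strain and replicate therefore cannot be told apart here. ehf was at 0.592 and 5.64 TPM at stage 40 and 3.35 and 7.67 TPM at stage 41, with replicate 2 the higher each time, and was called at no step. spdef was at most 1.17 TPM. The sum of the 4 surface epithelium marker genes measured had another order. It was highest at stage 15, at 1280 and 1090 TPM, and was 261 and 161 TPM at stage 40. scel carried most of it at stage 15, with a mean of 919 TPM. grhl1 and esrp1 were also highest at stage 15, while tp63 was highest at stage 41, at 81.2 ± 17.1 TPM. In the late comparison esrp1 rose (log2 change 1.11, adjusted p = 0.000441) and the others were not called. From stage 40 to 41, 0 of the 4 rose and 0 fell.

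elf1/elf4 (chromosome 10, 9655208 to 9696462) was at 3.66 and 1.68 TPM at stage 6, 42.7 and 8.04 TPM at stage 11, 29 and 57.8 TPM at stage 15 and 5.69 and 9.08 TPM at stage 19. It rose from stage 6 to 11 (log2 change 2.49, SE 0.53, adjusted p = 0.00354) and fell from stage 15 to 19 (-2.35, SE 0.53, adjusted p = 0.00374). The rise was lost without replicate 2 of stage 6 or replicate 1 of stage 11 and with quantile normalization, and the fall without replicate 2 of stage 15.

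IGDB15968 (chromosome 16, 21604671 to 21648083), an ETS gene without a name, gave the only call from stage 25 to 29. It was at 0.137 and 0.108 TPM at stage 25 and 2.09 and 5.09 TPM at stage 29 (log2 change 1.95, SE 0.32, adjusted p = 0.000645), and had fallen from stage 11 to 15 (-1.34). erfl3 fell from 17.1 and 31.0 TPM at stage 15 to 3.69 and 14.6 TPM at stage 19 (-1.50, adjusted p = 0.0203), a call lost without replicate 2 of stage 15 or replicate 1 of stage 19. IGDB09013 was at most 0.387 TPM in any library up to stage 32, reached 3.89 and 3.80 TPM at stage 41 and rose in the late comparison (1.19, adjusted p = 4.89e-08). This late call was lost with a pseudocount of 5 TPM and with quantile normalization, and its change ranged from 0.25 to 2.72. fev, known in mouse from serotonin neurons, was at most 3.09 TPM, in replicate 1 of stage 38.

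**Figure D4:**
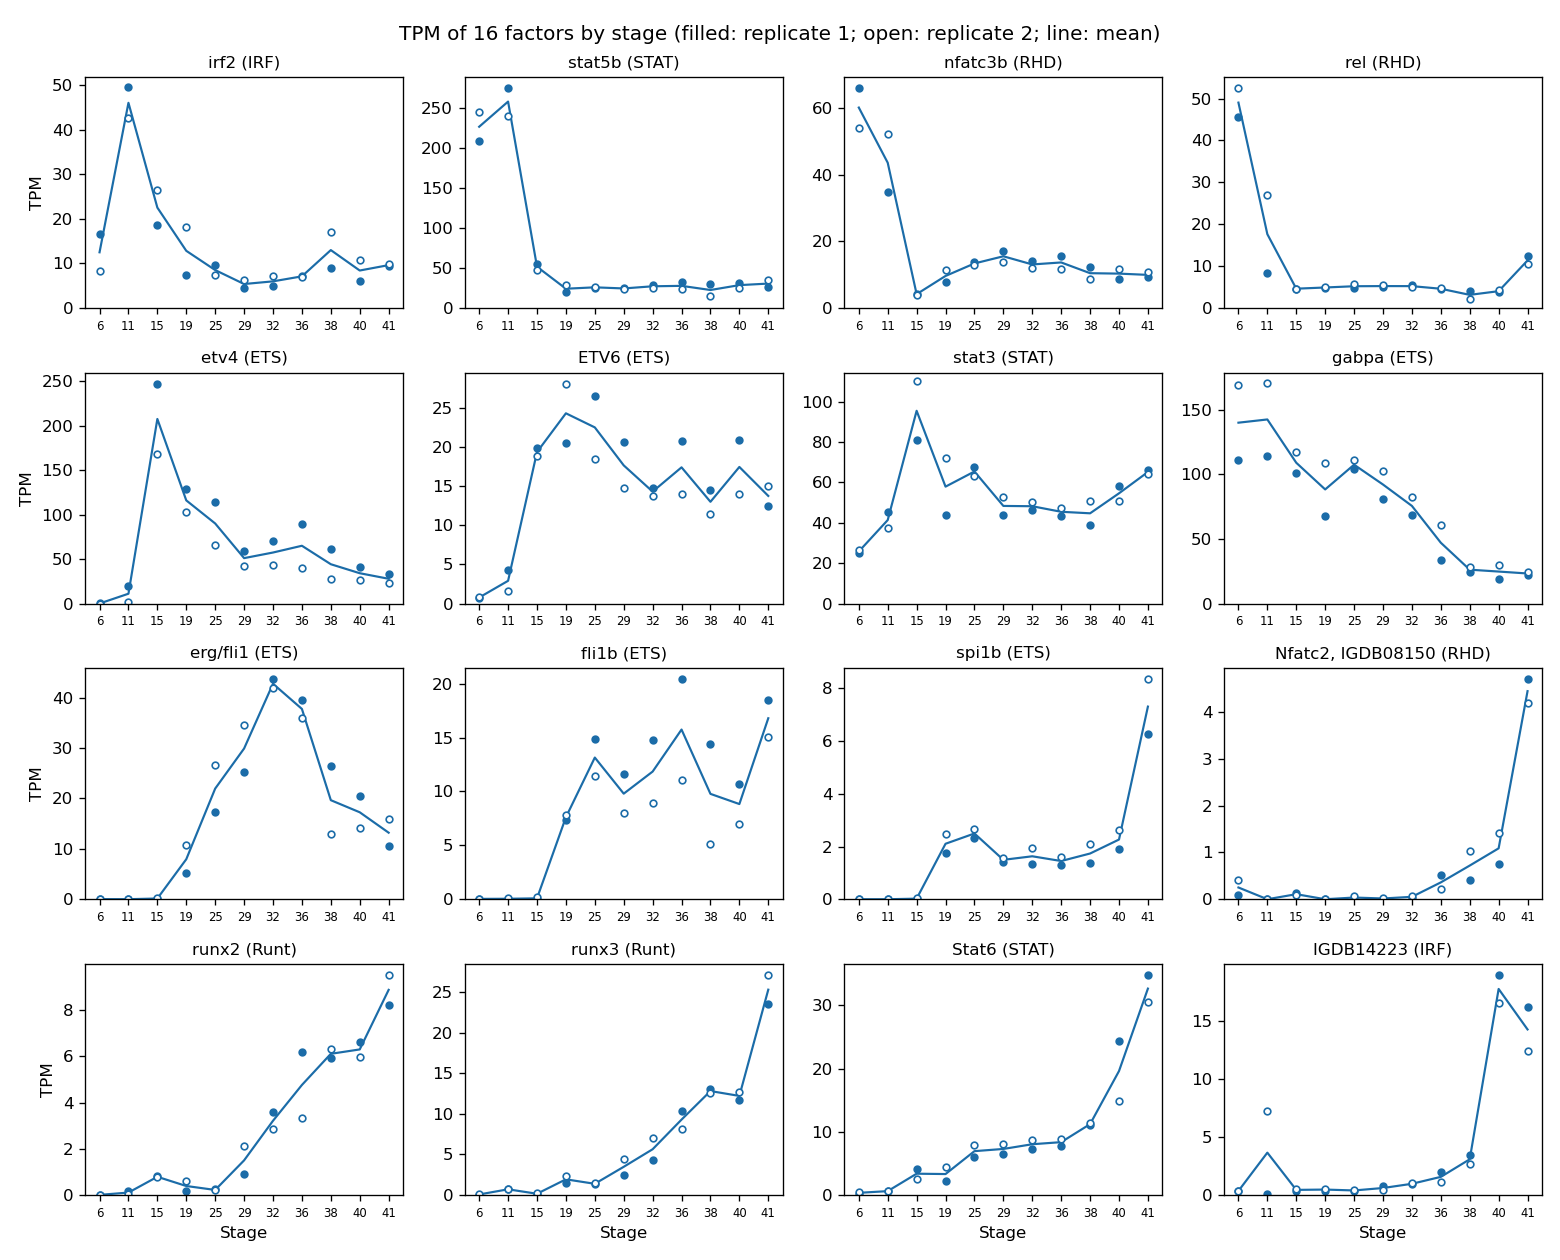
TPM against stage for 16 factors, each panel with its own axis from 0, filled points for replicate 1, open points for replicate 2 and a line through the stage mean. The top row shows genes highest at stage 6 or 11 (irf2, stat5b, nfatc3b and rel), and the bottom row genes that climbed late, runx3 to 23.5 and 27.1 TPM and Stat6 to 34.8 and 30.5 TPM at stage 41.

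The Runt family held 3 genes that climbed from low levels and 1 that was lost. runx3 (chromosome 22, 16928151 to 16952065), which in mouse acts in T cells and sensory neurons, was at 0.103 and 0.172 TPM at stage 15, 1.46 and 2.37 TPM at stage 19, 10.4 and 8.16 TPM at stage 36 and 23.5 and 27.1 TPM at stage 41. It rose from stage 15 to 19 (log2 change 1.34, SE 0.29, adjusted p = 0.00256) and in the late comparison (1.99, SE 0.16, adjusted p = 1.05e-08). Both libraries of stage 41 lay above the other 20.

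runx2 (chromosome 24, 3137495 to 3184228), the regulator of bone-forming osteoblasts, was at 0.236 and 0.190 TPM at stage 25, 3.57 and 2.85 TPM at stage 32, 5.91 and 6.31 TPM at stage 38 and 8.24 and 9.52 TPM at stage 41. It was called at no single step and rose in the late comparison (log2 change 2.06, SE 0.16, adjusted p = 4.82e-09). This call was lost with a pseudocount of 5 TPM and with quantile normalization, and the change ranged from 0.91 to 3.27 over all alternatives. The list of cartilage and bone genes counted 5 rises of 8 in that comparison, where 26.5% of all genes rose. The genes that rose were col2a1a, matn1, col10a1, phex and col9a1, and sox9, sp7 and alpl were not called. This list summed to 302 and 343 TPM at stage 6, mostly from phex, then 108 and 133 TPM at stage 19 and 784 and 790 TPM at stage 40. Its highest genes were col10a1, a collagen, at 1170 ± 1080 TPM at stage 41 with its libraries far apart, and matn1, a cartilage matrix gene, at 585 ± 7.57 TPM at stage 38. The part of bone cell number in the runx2 rise was not tested.

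runx1 (chromosome 2, 1346310 to 1369639), required for definitive blood stem cells, was highest at stage 36, at 4.20 and 3.10 TPM, and fell back to 0.408 and 1.10 TPM at stage 41. It passed the F test (adjusted p = 1.72e-06) and was called at no step and not in the late comparison. IGDB02745 (chromosome 15, 1330457 to 1337331), a Runt gene without a name, was at 1.09 and 1.08 TPM at stage 6, 1.03 and 1 TPM at stage 11 and at most 0.431 TPM in any later library, so its highest level was close to the filter. The Runt order at stage 41 was runx3, then runx2, then runx1, with no overlap of libraries.

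The IRF family counted 5 falls and 1 rise among 11 from stage 11 to 15, where 20.1% of all genes fell and 15.1% rose. Its median log2 change was -1.04 against -0.02 for all genes. Among the genes that fell were Irf3, an inducer of type I interferon, from 11.7 and 18.3 TPM to 1.95 and 1.07 TPM (-2.67, adjusted p = 2.2e-06), irf10 (-2.70), irf5 (-1.07) and irf9 (-1.12). The falls of irf5 and irf9 were lost with median-of-ratios scaling and with quantile normalization. The gene that rose was irf1a, an interferon-inducible activator, to 2.11 and 1.12 TPM, and it fell again at the next step (-1.20).

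Some IRF genes had a blastula peak. irf2 (chromosome 10, 24513568 to 24524434), a repressor of irf1 targets in mammals, rose from 16.7 and 8.32 TPM at stage 6 to 49.6 and 42.6 TPM at stage 11 (log2 change 1.87, SE 0.42, adjusted p = 0.00596), a call lost without replicate 2 of stage 6 or replicate 1 of stage 11 and with quantile normalization, and was at 18.7 and 26.4 TPM at stage 15. irf10 (chromosome 7, 17871953 to 17880107) was at 0.775 and 0.644 TPM at stage 6, 14.8 and 5.16 TPM at stage 11 and 0.378 and 0.666 TPM at stage 15. Its rise (2.53, SE 0.38, adjusted p = 0.000164) and fall (-2.70, SE 0.38, adjusted p = 2.37e-05) were kept in all 32 alternatives run. irf9 rose at stage 11 as well, to 1.98 and 2.40 TPM (log2 change 1.44), a call lost with a pseudocount of 5 TPM and with quantile normalization. irf5 (chromosome 23, 23847977 to 23853586), which acts below Toll-like receptors, was highest at stage 6, at 42.0 and 25.1 TPM, and stayed between 6.19 and 12.8 TPM from stage 15 on.

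Around and after hatching the order of the IRF genes changed. IGDB14223 (chromosome 14, 4969798 to 4972984) was at 3.44 and 2.71 TPM at stage 38, 19 and 16.6 TPM at stage 40 and 16.2 and 12.4 TPM at stage 41. The step from stage 38 to 40 was not called (log2 change 2.21, SE 0.56, adjusted p = 0.142), and the late comparison was (1.97, SE 0.33, adjusted p = 4.3e-05). An isolated value of 7.26 TPM in replicate 2 of stage 11 stood against 0.0382 TPM in replicate 1. irf9, the DNA-binding part of the interferon response complex, reached 7.95 and 5.16 TPM at stage 40 and rose in the late comparison (1.44, SE 0.14, adjusted p = 1.27e-07). The late call of irf9 was also lost with a pseudocount of 5 TPM and with quantile normalization, and its change ranged from 0.44 to 2.44.

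irf4a, a lymphocyte factor in mammals, rose from 1.07 and 0.910 TPM at stage 40 to 4.28 and 2.67 TPM at stage 41 (log2 change 1.14, SE 0.25, adjusted p = 0.00374), a call lost without replicate 1 of stage 41. Its model overlaps that of IGDB03998 on the same strand by 1308 bases, so reads could be split between them, and IGDB03998 did not pass the F test. Of 10 interferon response and antigen presentation genes, 3 rose and 0 fell from stage 40 to 41, where 5.22% of all genes rose and 9.71% fell. The sum of the 10 went from 30.7 and 46.9 TPM to 88.7 and 119 TPM. psmb8, an immunoproteasome subunit, was at 31.9 ± 7.93 TPM at stage 41, while tap1, a peptide transporter, was highest at stage 6, at 47.1 ± 0.497 TPM.

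The STAT family was led by stat5b until gastrulation and by stat3 afterwards. stat5b (chromosome 19, 22928517 to 22951906), which carries growth hormone and cytokine signals, was at 209 and 245 TPM at stage 6, 276 and 241 TPM at stage 11, 55.4 and 47.9 TPM at stage 15 and 19.5 and 28.7 TPM at stage 19. It fell from stage 11 to 15 (log2 change -2.30, SE 0.31, adjusted p = 1.5e-05) and from stage 15 to 19 (-1.09, SE 0.31, adjusted p = 0.0185). The first fall was kept in all 32 alternatives, and the second was lost without any of 3 libraries of stages 15 and 19.

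stat3 (chromosome 8, 6336681 to 6348066), needed for convergence movements in the zebrafish gastrula, rose at the step at which stat5b fell. It was at 25.2 and 26.4 TPM at stage 6, 45.3 and 37.4 TPM at stage 11 and 80.9 and 110 TPM at stage 15 (log2 change 1.18, SE 0.27, adjusted p = 0.0022). The call was lost without replicate 2 of stage 15. Later stage means lay between 44.7 and 65.4 TPM, and stat3 was the highest STAT gene in every library from stage 15 to 41.

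Stat2 and Stat4 fell with stat5b. Stat2 (chromosome 5, 4160443 to 4183196), a partner of irf9 in interferon signalling, went from 49.0 and 68.9 TPM at stage 11 to 20.8 and 18.0 TPM at stage 15 (log2 change -1.54, SE 0.26, adjusted p = 0.000133), and Stat4, which answers interleukin-12 in mammals, from 10.9 and 13.2 TPM to 1.24 and 1.71 TPM (-2.40, SE 0.30, adjusted p = 7.25e-06). Stat6, which answers interleukin-4 in mammals, was the lowest STAT gene at stage 6 and climbed, from 0.178 and 0.465 TPM at stage 6 to 4.17 and 2.53 TPM at stage 15 (1.43, SE 0.32, adjusted p = 0.00175) and 34.8 and 30.5 TPM at stage 41. The step from stage 40 to 41 was not called for Stat6, and its rise in the late comparison (1.03, adjusted p = 0.000109) was near the minimum change. That call was lost without any of 5 libraries, with a pseudocount of 5 TPM and with quantile normalization. IGDB19212, an unnamed STAT gene 8690 bases from Stat4 on the same strand, was highest at stage 40, at 6.16 and 6.80 TPM, and was called at no step.

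Of 22 gene models of the JAK-STAT pathway, 8 fell and 4 rose from stage 11 to 15, where 20.1% of all genes fell and 15.1% rose. The median log2 change of the 22 was -0.23 against -0.02 for all genes. The sum of the 22 went from 475 and 638 TPM to 260 and 302 TPM. socs1, a feedback inhibitor of Janus kinases, was the highest, at 184 ± 79.4 TPM at stage 6, and fell by 5.24 on the log2 scale from stage 11 to 15 (SE 0.49, adjusted p = 3.37e-07). pias4, a STAT inhibitor with SUMO ligase activity, was at 119 ± 17.3 TPM at stage 6 and fell by 1.26 from stage 6 to 11. From stage 40 to 41 the list counted 4 rises and 0 falls, where 5.22% of all genes rose and 9.71% fell.

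Among the NF-kB genes of the RHD family, the maternal level of rel was lost in successive steps. rel (chromosome 15, 7337263 to 7351610), the c-Rel subunit, was at 45.5 and 52.6 TPM at stage 6, 8.35 and 26.9 TPM at stage 11 and 4.58 and 4.63 TPM at stage 15. It fell from stage 6 to 11 (log2 change -1.63, SE 0.38, adjusted p = 0.00713) and from stage 11 to 15 (-1.53, SE 0.38, adjusted p = 0.00354). The first of these calls was lost without replicate 2 of stage 6 or replicate 1 of stage 11, and the second without replicate 2 of stage 11. From stage 19 the level stayed between 2.26 and 5.62 TPM until stage 40 and was at 12.3 and 10.4 TPM at stage 41 (1.3, SE 0.38, adjusted p = 0.0231). The last call was lost without the d-rR / Qurt libraries, and without any 1 of the 4 libraries of stages 40 and 41. The libraries of stage 40 did not overlap those of stage 41.

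nfkb1 (chromosome 10, 30827736 to 30872297), the precursor of the p50 subunit, fell from 63.8 and 84.2 TPM at stage 11 to 15.3 and 19.9 TPM at stage 15 (log2 change -2.01, SE 0.30, adjusted p = 4.68e-05), and kept between 11.5 and 24.5 TPM after that. nfkb2 (chromosome 15, 12630278 to 12642544), the precursor of p52, fell a step later, from 33.1 and 27.5 TPM at stage 15 to 9.41 and 6.32 TPM at stage 19 (-1.84, SE 0.45, adjusted p = 0.00739). The call of nfkb2 was lost without replicate 1 of stage 15 or replicate 2 of stage 19. Relb, the usual partner of p52, rose from 20.2 and 5.46 TPM at stage 6 to 26.9 and 39.0 TPM at stage 11 (1.51, adjusted p = 0.0141), a call lost without replicate 2 of either stage. IGDB17438, an unnamed gene with a strong RHD match, ranged from 14.4 to 45.1 TPM and did not pass the F test.

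Of 21 NF-kB pathway genes, 5 rose and 3 fell from stage 11 to 15, where 15.1% of all genes rose and 20.1% fell. From stage 15 to 19, 0 of the 21 rose and 4 fell, where 9.85% of all genes rose and 8.02% fell. No later step held a call of this list. The highest of the 21 were nfkbie, an inhibitor that holds Rel proteins in the cytoplasm, at 198 ± 3.00 TPM at stage 6, and tab2, an adaptor of the TAK1 kinase, at 126 ± 45.3 TPM at stage 6. nfkbie fell from stage 11 to 15 (log2 change -1.49), and tab2 fell from stage 6 to 11 (-1.68) and from stage 11 to 15 (-1.90).

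Of the NFAT genes, nfatc3a and nfatc3b fell before stage 19. nfatc3b (chromosome 6, 6741717 to 6764095) was at 66.1 and 54.1 TPM at stage 6, 34.9 and 52.2 TPM at stage 11, 4.25 and 4.03 TPM at stage 15 and 7.70 and 11.5 TPM at stage 19. It fell from stage 11 to 15 (log2 change -3.09, SE 0.30, adjusted p = 4.45e-07), the smallest p of any factor at any step, and rose from stage 15 to 19 (1.02, SE 0.30, adjusted p = 0.0213). The rise was near the minimum change and was lost without replicate 1 or 2 of stage 15 or replicate 2 of stage 19. nfatc4 rose at the latter step, from 0.759 and 0.478 TPM to 3.31 and 3.08 TPM (1.38, SE 0.32, adjusted p = 0.00511), a call lost without replicate 2 of stage 15.

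The NFATc1 genes, which in mouse act in heart valves and osteoclasts, were late. NFATC1 (IGDB15479, chromosome 16, 2897165 to 2961875) was at 0.272 and 0.407 TPM at stage 19, 6.23 and 4.12 TPM at stage 29 and 24.0 and 8.05 TPM at stage 36, and rose in the late comparison (1.88, SE 0.28, adjusted p = 1.39e-05). At stage 36 the 2 libraries stood far apart. Of 12 calcineurin-NFAT pathway genes, 1 rose and 0 fell in the late comparison, where 26.5% of all genes rose and 11.6% fell. From stage 11 to 15, 1 of the 12 rose and 3 fell, where 15.1% of all genes rose and 20.1% fell. ppp3r1, the regulatory subunit of calcineurin, was highest at stage 36, at 199 ± 23.0 TPM, and homer2, a scaffold protein that competes with calcineurin for NFAT, at stage 15, at 141 ± 5.99 TPM.

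Nfatc2 (IGDB08150, chromosome 5, 13726775 to 13736041), a T cell factor in mammals, was at or below 0.401 TPM in every library before stage 36. It was at 0.757 and 1.42 TPM at stage 40 and 4.70 and 4.20 TPM at stage 41 (log2 change 1.40, SE 0.20, adjusted p = 0.000126). The 4 factors that rose from stage 40 to 41 were thus spi1b, irf4a, Nfatc2 (IGDB08150) and rel. They are 1 ETS, 1 IRF and 2 RHD genes, and 6.25% of the 64 tested, near the 5.22% of all genes that rose. All 4 calls were lost with a pseudocount of 5 TPM, while median-of-ratios scaling and quantile normalization called more factors. At the same step 6 of 10 lymphoid and thymus genes rose and 0 fell, where 5.22% of all genes rose and 9.71% fell. The sum of the 10 went from 33.1 and 29.5 TPM to 74.2 and 80.3 TPM. rag1, a recombinase of antigen receptor genes, was at 24.0 ± 2.37 TPM at stage 41, after 3.82 TPM at stage 40, and cd4, a T helper cell receptor gene, was highest at stage 32, at 28.2 ± 5.02 TPM. The part of immune cell number in the 4 rises was not tested.

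In the set 9 pairs of genes carry the same or paired names, on different chromosomes, and no sequence was compared. Of the 2 elk3 genes, IGDB20174 rose from 2.23 and 1.60 TPM at stage 15 to 11.0 and 10.3 TPM at stage 19 (log2 change 2.00, SE 0.30, adjusted p = 0.000125), and IGDB23569 rose from 6.51 and 1.01 TPM at stage 11 to 15.5 and 15.4 TPM at stage 15 (2.08, SE 0.46, adjusted p = 0.00155), both calls being kept in all 32 alternatives. Each also rose at the step before, IGDB20174 by 1.04 and IGDB23569 by 1.94 on the log2 scale, and these calls were lost with a pseudocount of 5 TPM and without any of 2 libraries, that of IGDB20174 also with quantile normalization. IGDB23569 lay above IGDB20174 with no overlap of libraries at 8 of the 11 stages, reaching 61.1 and 59.3 TPM at stage 32 against 27.5 and 22.4 TPM.

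In the stat5 pair, stat5b exceeded stat5a without overlap at 9 stages, by 258 to 9.09 TPM (stage means) at stage 11, but the libraries overlapped at stages 36 and 38, with means of 27.7 TPM for stat5b and 23.7 TPM for stat5a at stage 36. stat5a rose from 4.93 and 4.88 TPM at stage 15 to 11.8 and 11.2 TPM at stage 19 (log2 change 1.08, adjusted p = 0.0383), the step at which stat5b fell, and this call was lost without any 1 of 6 libraries. stat5a lies 4272 bases from stat3 on chromosome 8, on the same strand.

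In the nfatc3 pair both genes fell at the same step. nfatc3a went from 57.5 and 28.7 TPM at stage 6 to 15.2 and 17.1 TPM at stage 11 (log2 change -1.28, SE 0.35, adjusted p = 0.0197) and to 2.25 and 1.77 TPM at stage 15 (-2.51, SE 0.35, adjusted p = 1.94e-05). The first of these falls was lost without replicate 1 of stage 6 or 11 and with quantile normalization. nfatc3b was the higher at 7 stages, and at the other 4 the libraries overlapped. In the nfatc2 pair NFATC2 (IGDB24757) was higher than Nfatc2 (IGDB08150) without overlap at all 11 stages, at 22.2 and 15.4 TPM against 0.101 and 0.401 TPM at stage 6, and at 5.56 and 8.85 TPM against 4.70 and 4.20 TPM at stage 41.

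The nfatc1 and nfat5 pairs exchanged places. nfatc1 (IGDB01364) was the higher at stages 6 and 11, at 2.1 and 1.93 TPM against 0.0355 and 0.0283 TPM at stage 6, and NFATC1 (IGDB15479) was the higher without overlap at 6 later stages. nfat5b, from the branch that answers osmotic stress, was above nfat5a at stages 6 and 11, with 25.8 and 14.2 TPM against 13.2 and 7.84 TPM at stage 6, and nfat5a was above nfat5b at 6 stages from 25 to 40, for example 21.1 and 6.73 TPM against 4.07 and 3.81 TPM at stage 32. Neither nfat5 gene was called at a step.

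The remaining pairs were ETS genes. Elf1 (IGDB16597) fell from 57.8 and 42.0 TPM at stage 6 to 12.9 and 28.8 TPM at stage 11 (log2 change -1.31, SE 0.33, adjusted p = 0.0134) while elf1/elf4 rose, a call lost without replicate 1 of stage 6 or 11 and with quantile normalization, and from stage 19 on their stage means stayed within 7.39 and 19.7 TPM. erg/fli1 and fli1b started together at stage 19, and erg/fli1 was the higher without overlap at 5 later stages, at 43.6 and 41.9 TPM against 14.8 and 8.90 TPM at stage 32. spi1a was the higher at stages 11 and 15, at 0.35 and 0.313 TPM at stage 11 where spi1b was listed at 0. spi1b appeared at stage 19, when spi1a was listed at 0 in both libraries, and spi1a then came up slowly to 3.30 and 2.89 TPM at stage 41, below spi1b. The difference between the genes of a pair was not tested.

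**Figure D5:**
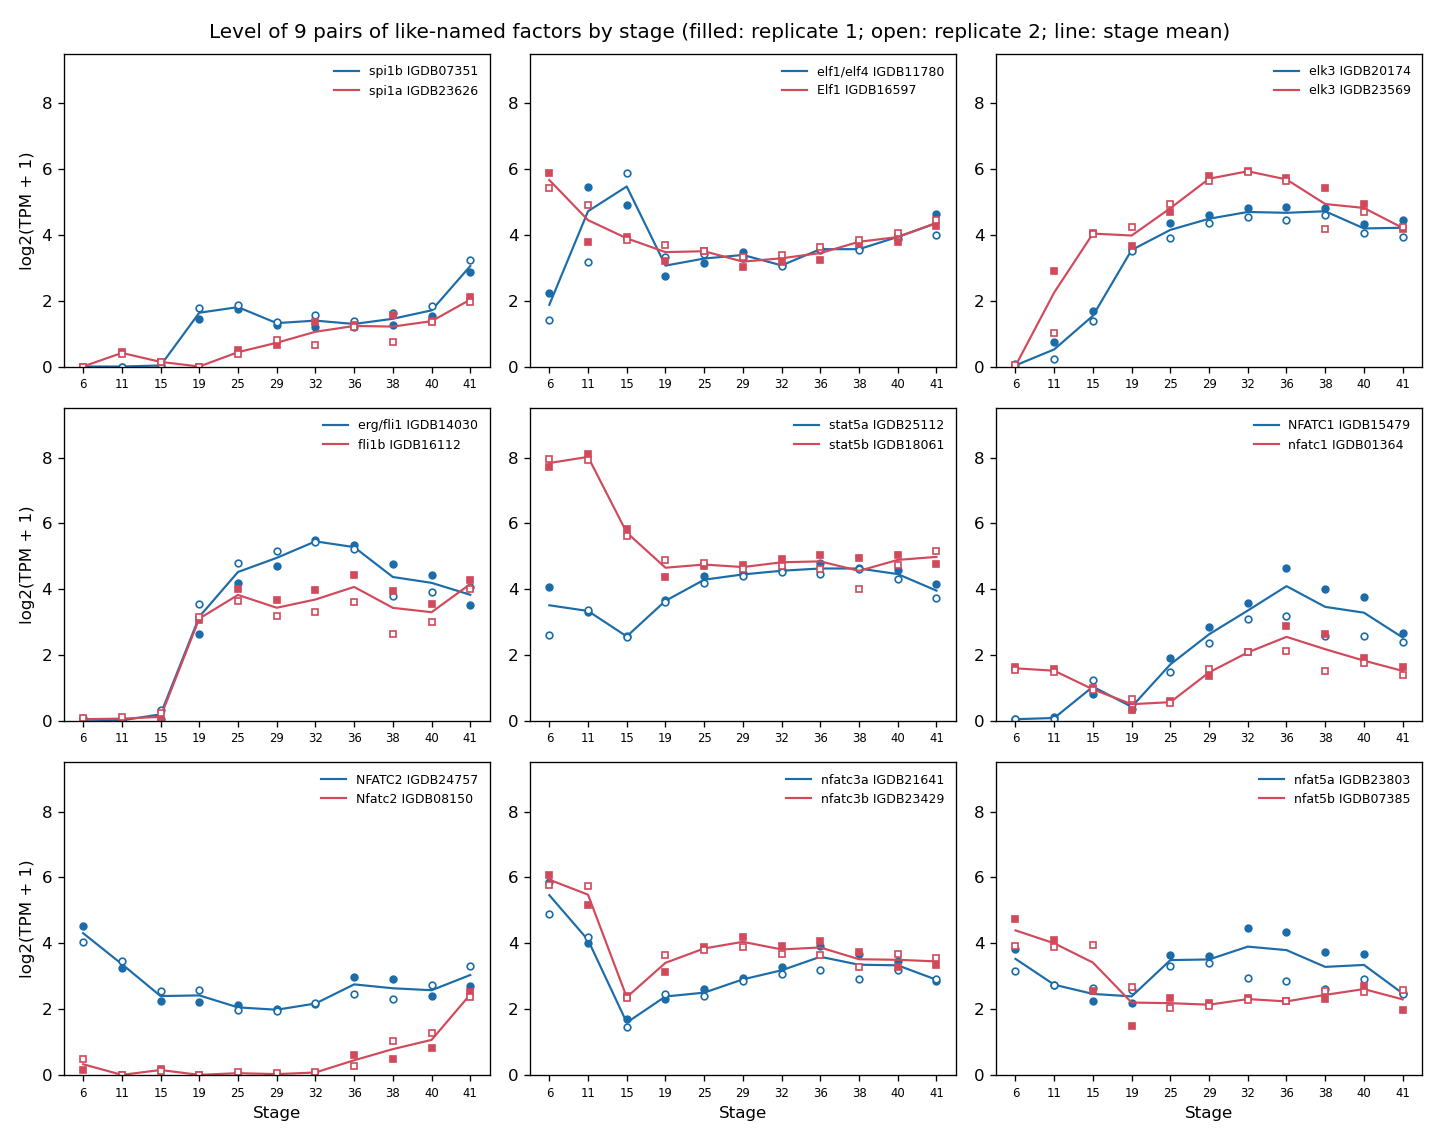
Level as log2(TPM + 1) against stage for 9 pairs of like-named factors, with filled points for replicate 1, open points for replicate 2 and lines through stage means. The stat5 genes lie far apart at stage 11, with stage means of 258 and 9.09 TPM, and the nfatc1 and nfat5 pairs cross between stages 11 and 25.

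The libraries of a stage agreed about as well for the factors as for other genes. The median absolute log2 difference between the 2 libraries of a stage ran from 0.153 to 0.445 over the 64 factors and from 0.211 to 0.412 over all genes. At stage 19, 49 of the 64 factors were higher in replicate 2 and 12 in replicate 1, with a median log2 difference of 0.34 beside 0.29 for all genes, so steps that start or end at stage 19 carry a shift between its 2 libraries. At stage 38, 43 of the 64 were higher in replicate 1. Of the 67 gene models, 13 overlap another model in span, 5 of them one on the same strand.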

How the data were processed

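The authors aligned strand-specific poly(A) paired reads with HISAT2 2.1.0 and quantified their own gene models with StringTie 1.3.3b, per the labels, and deposited TPM per gene and library. The table's sums per library ran from 980148 to 1000000. The values were used as deposited. The mean columns of the authors, an adult gonad table and a list of noncoding RNAs were not used. The 21179 genes that reached 1 TPM in 2 or more libraries were transformed to log2(TPM + 1). In R 4.3.3, limma 3.58.1 estimated each stage mean and moderated the variances along a trend with expression, and p-values were adjusted (Benjamini-Hochberg) over all genes of a contrast. The script was tested on simulated data. Python 3.11.15 was used for counts and plots.

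Identifiers were matched to RefSeq (assembly ASM223467v1) by overlap of gene spans with a Jaccard index of at least 0.5, which matched 18106 genes and 60 of the 67 factors. List genes are those with a matched symbol. The members and lists were chosen with earlier results of these data known. Full values are given for the most abundant genes of each family (6 ETS, 3 each of RHD, IRF and STAT, all Runt), the 2 largest called changes per step and direction, and like-named pairs; list genes are named by their 2 highest. Values of further members were added after they were seen, such as those called in the late comparison. So were markers listed at 0 and some further list genes. Some genes, and sums that rest on them, are not reported here. Results were recomputed after changing the pseudocount, the filter or the scaling, without the variance trend or the minimum change, with a replicate block, and after leaving out the other strain or 1 library at a time. Dropping the minimum change cannot end a call. Leaving out a library of neither stage of a step acts on it only through the shared variance and the adjustment of p.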

Additional observations from a re-analysis of the deposited data

How the results depend on the processing

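Of 55 calls of factors over the 10 steps, 16 were kept under all 10 settings and with each of 22 libraries left out, 12 of them from stage 11 to 15, and no call reversed its direction. The pseudocount and quantile normalization mattered most, with 30 calls kept at a pseudocount of 5 TPM and 36 after quantile normalization. Median-of-ratios scaling moved the median of all genes by 0.23 log2 units from stage 36 to 38, by 0.20 at the last step and by -0.12 from stage 19 to 25, and quantile normalization by between -0.18 and 0.16 over the steps and by -0.32 in the late comparison. The cause was not tested in any case below.

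Counts of factors called moved by over 1.5 times as follows. The shares of all genes called under these settings, or with a library left out, are not given and may have moved too. With a pseudocount of 0.1 TPM they were 18 from stage 6 to 11, 6 from stage 19 to 25, 4 from stage 25 to 29 and 23 in the late comparison. With a pseudocount of 5 TPM they were 7 from stage 6 to 11, 6 from stage 15 to 19, 1 from stage 19 to 25, 0 from stage 25 to 29, 1 from stage 38 to 40, 0 from stage 40 to 41 and 3 in the late comparison. After quantile normalization they were 6 from stage 6 to 11, 1 from stage 19 to 25, 2 from stage 25 to 29, 3 from stage 38 to 40 and 10 at the last step. With median-of-ratios scaling the step from stage 19 to 25 gave 1 and the last step 8. With a filter of 5 TPM the count from stage 40 to 41 was 2, and without the other strain that from stage 19 to 25 was 1. With no minimum change they were 2 from stage 25 to 29, 1 from stage 32 to 36, 8 from stage 40 to 41 and 34 in the late comparison.

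With 1 library left out, the counts ran from 58 to 61 over the stages, 5 to 13 from stage 6 to 11, 20 to 27 from stage 11 to 15, 8 to 14 from stage 15 to 19, 0 to 3 from stage 19 to 25, 1 to 3 from stage 25 to 29, 0 to 2 from stage 36 to 38, 0 to 1 from stage 38 to 40, 2 to 6 from stage 40 to 41 and 11 to 16 in the late comparison. The 5 calls from stage 6 to 11 came without replicate 1 of stage 11 and 7 without replicate 2 of stage 6; from stage 15 to 19, 9 and 8 came without replicate 1 and 2 of stage 15; from stage 40 to 41, 2 came without replicate 1 of stage 41. A lone library is then assumed to vary like the other stages.

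Deviations of same-numbered libraries from their stage means correlated from 0.0478 to 0.669 over 55 pairs of stages, over 0.1 in 53, a hint from the data that same-numbered libraries vary together. The fit without the block was kept because no label names a shared source. This choice does not show that a replicate effect was absent, and the p-values above take no account of one. A fit with a replicate block called 63 factors over the stages, among them the 60 called without it, 12, 25 and 15 at the first 3 steps, 3 from stage 19 to 25, 4 from stage 40 to 41 and 11 in the late comparison, and kept all 55 step calls. TPM keeps no depth, so low values carry an unknown counting error.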
